A study of Mus musculus with 5 samples.

Results

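The genes described here are the nuclear receptors other than the retinoic acid receptors (RAR), the retinoid X receptors (RXR) and the Nr4a group, in mouse hematopoietic stem cells (HSCs) cultured with all-trans retinoic acid (ATRA). The list held 37 gene symbols, of which 35 were named by an array feature of their own, among 22180 genes analysed in all. Nr1h2 and Nr2e3 were not analysed here. Where several features named a gene, the brightest by its mean over the 5 arrays was taken, which concerned Nr3c2 among these genes. The ATRA group was 2 arrays of RNA from HSCs sorted by flow cytometry after stem and progenitor cells of C57BL/6 mice had been cultured for 24 h with 5 µM ATRA, the active derivative of vitamin A. The DMSO group was 3 arrays of HSCs sorted after the same 24 h with DMSO, the solvent. No genetic change is named for either group. The study asked how retinoic acid bears on HSC dormancy, a state of deep quiescence. All values are the deposited log2 expression values of Affymetrix arrays, which have no true zero, and values of different genes were not compared as levels because each feature has its own response. The number of arrays limits the precision, and the labels do not state whether replicates were separate cultures or mice, so each p-value rests on a spread that may be technical.

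Nuclear receptors are transcription factors that bind DNA through paired zinc fingers and, in most members, a lipid-soluble ligand such as a hormone, an oxysterol, a fatty acid or a retinoid. Many receptors of the NR1 subfamily bind DNA as partners of RXR, the same partner that RAR needs, on repeats of the hexamer AGGTCA that differ in their spacing. Steroid receptors form pairs with themselves, and orphan receptors have no ligand of settled role. Without ligand many receptors hold corepressors with histone deacetylases, and with ligand they recruit coactivators with histone acetyltransferases.

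The ATRA arrays differed from the DMSO arrays over all features, and also from each other. The SD of the values was 1.77 and 1.49 in ATRA replicates 1 and 2, against 1.96 to 1.97 in the DMSO arrays. Pearson's r over all features was 0.730 between the ATRA arrays and 0.966 to 0.978 among the DMSO arrays. ATRA replicate 1 was closer to the DMSO arrays (r of 0.81 to 0.83) than to ATRA replicate 2. For ATRA replicate 2 the r with the DMSO arrays was 0.60 to 0.64. Genes with high DMSO values had lower ATRA values and genes with low DMSO values had higher ones, as the classes of DMSO mean given further on show. Some lists of cell type markers differed between the groups as well, while in others the ATRA and DMSO averages overlapped. The 10 measured HSC and progenitor markers averaged 8.17 and 6.93 in ATRA replicates 1 and 2, against 9.12 to 9.31 in DMSO. Of these 10, 4 were lower, 0 higher and 6 not past the threshold, while 15.5% of all genes were lower and 6.48% higher. The 12 neutrophil, monocyte and macrophage markers averaged 6.45 and 6.02 in ATRA, against 6.01 to 6.28 in DMSO, with 1 higher. The 6 T and NK cell markers averaged 6.05 and 6.01 in ATRA, against 5.14 to 5.43 in DMSO, with 1 higher. The 4 B cell markers averaged 5.74 and 6.29 in ATRA and 5.60 to 5.68 in DMSO, the 4 megakaryocyte markers 7.98 and 7.94 in ATRA and 8.43 to 8.70 in DMSO, and the 2 erythroid markers 6.18 and 7.10 in ATRA and 6.79 to 7.01 in DMSO. With the level trend removed, 0 of the 10 HSC and progenitor markers passed, and their median difference was 0.10 instead of -1.38. The 6 T and NK cell markers then had a median of 0.25 instead of 0.71, and 0 passed. Of the other marker lists only 1 gene, of megakaryocytes, then passed, as higher, while 3.28% of all genes were called. The part of these array and marker shifts in the receptor results was not tested, except that each receptor was also fitted after removal of the level trend. Fewer cells of a type and less RNA per cell cannot be told apart in such samples.

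Most nuclear receptor genes did not pass the test, and the 4 that did were 3 that fell and 1 that rose. Nr2c1 and Nr2c2, a pair of related orphan receptors, and Vdr, the vitamin D receptor, fell by more than 1 on the log2 scale, and Nr2f1, an orphan receptor of the COUP-TF group, rose by 0.58. Of all genes, 1437 were higher and 3428 lower, against 560 and 4542 with each array centred on its median and 505 and 223 with the level trend removed. The receptors called were 4 of 35 genes past a limma adjusted p of 0.05, or 11.4%, against 21.9% of all 22180 genes. The calls were 1 higher (6.48% of all genes were) and 3 lower (15.5% of all genes were). The median difference, ATRA minus DMSO, was 0.14 over the 35 genes and 0.16 over all genes. For 10 receptors each ATRA array was higher than every DMSO array (33.0% of all genes), for 5 each was lower (29.2% of all genes), and for 20 the groups overlapped. Of all genes 62.1% had groups that did not overlap.

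**Figure D1:**
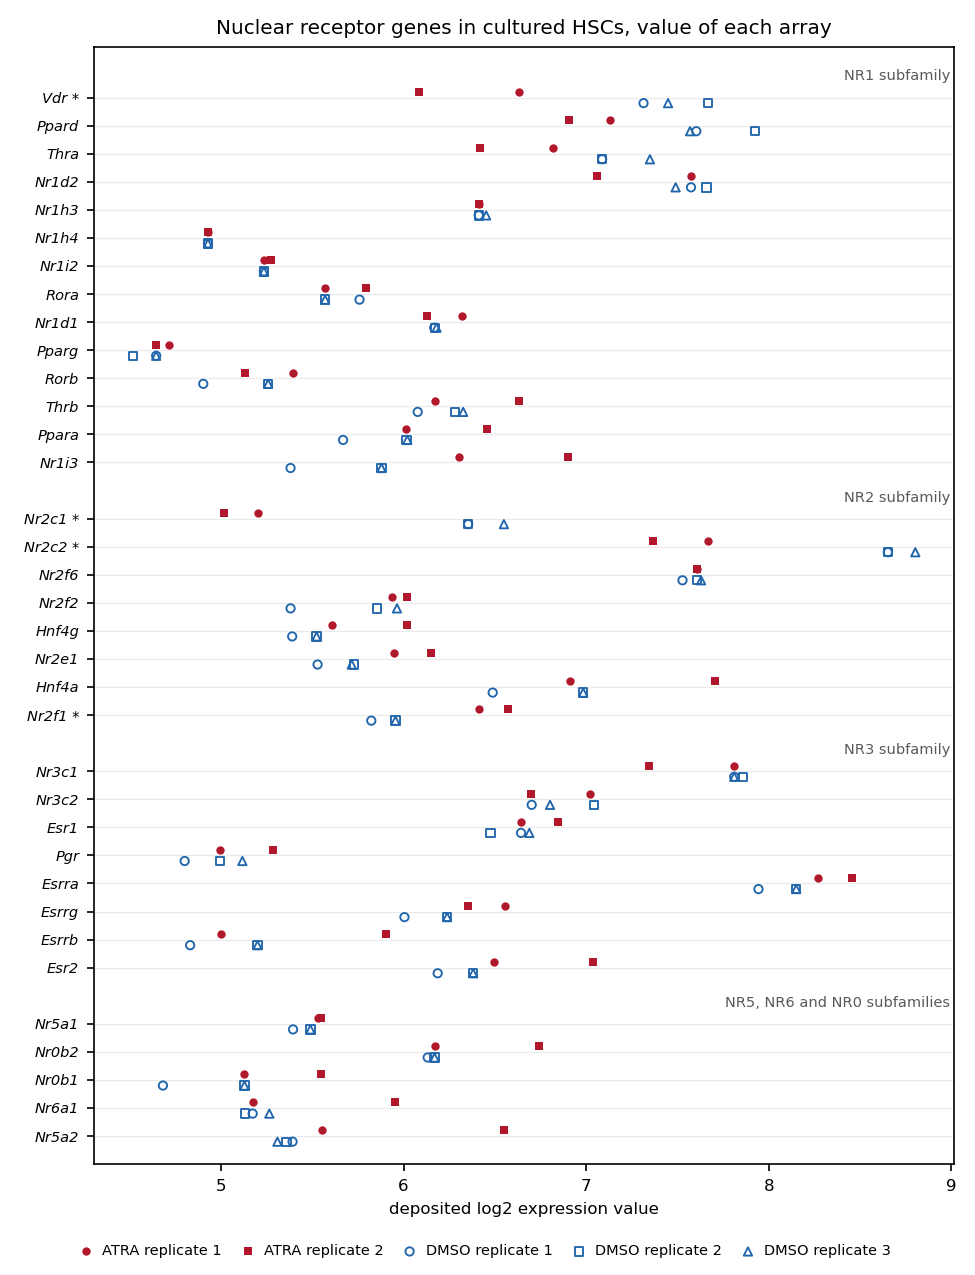
Deposited log2 value of each array (horizontal axis) for the 35 nuclear receptor genes, by subfamily and, within it, by the difference of ATRA minus DMSO. Filled red symbols are the 2 ATRA arrays and open blue symbols the 3 DMSO arrays, and an asterisk marks a limma adjusted p under 0.05. Nr2c1, Nr2c2 and Vdr have both ATRA values left of all DMSO values by a clear gap, and in many other rows the DMSO symbols of replicates 2 and 3 coincide.

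Equal values were frequent among these genes. For 25 of the 35 receptors (71.4%) at least 2 of the 5 arrays had the same value to the last deposited digit, against 47.8% of all genes. DMSO replicates 2 and 3 had the same value for 15 receptors, and an ATRA and a DMSO array shared a value for 11. Nr1h4 and Nr1i2 had 1 value in all 3 DMSO arrays, and Nr1h4 was at 4.93 in all 5 arrays. A spread of 0 between arrays in such genes is no sign of precision. Nor is a small spread where 2 DMSO arrays were equal, as they were for the called receptors Nr2c1, Nr2c2 and Nr2f1.

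Nr2c1 and Nr2c2 encode TR2 and TR4, orphan receptors that bind direct repeats of AGGTCA as a heterodimer and are known in erythroid cells as repressors of embryonic and fetal beta-type globin genes. Nr2c1 had 5.20 and 5.01 in the ATRA arrays, against 6.35, 6.35 and 6.55 in the DMSO arrays. It fell by 1.31 on the log2 scale, which is 2.48-fold lower (SE 0.14, limma adjusted p = 0.00997). Both ATRA values lay far below all DMSO values, and the gap was many times the spread within either group. DMSO replicates 1 and 2 were equal to the last digit for Nr2c1, and also for Nr2c2, so the DMSO spread of both may be too small. Nr2c2 had 7.67 and 7.37 in ATRA, against 8.65, 8.65 and 8.80 in DMSO. It fell by 1.19, which is 2.28-fold lower (SE 0.15, adjusted p = 0.0131). The groups of Nr2c2 did not overlap either, but the 2 genes stood differently against genes of their own level. In the class of Nr2c1, DMSO means of 6 to 7, genes had a median difference of 0.14, and 5% of them were at -0.77 or lower. For genes from 8 to 9, the class of Nr2c2, the median was -1.33. With the level trend removed, the difference of Nr2c1 was -1.44 (SE 0.17, adjusted p = 0.0257) and that of Nr2c2 turned to 0.31 (SE 0.21, adjusted p = 0.418). Nr2c1 was then the 1 receptor of 35 past the threshold (2.86%), against 3.28% of all genes and 1.01% of all genes for falls. Without any 1 of the DMSO arrays 0 of all 22180 genes passed in limma, although 2009 to 2154 were higher and 3837 to 3941 lower at an unadjusted p under 0.05, and the adjusted p was 0.0676 to 0.0742 for Nr2c1 at differences of -1.34 to -1.24. For Nr2c2 it was 0.0753 to 0.0888 at differences of -1.21 to -1.14.

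The promoter windows of the called genes are shown because 3 of the 4 genes fell in the values as deposited, and because the receptors themselves bind AGGTCA. They are RefSeq sequences of GRCm38.p6, from 250 bases before to 50 after the annotated start, 5′ to 3′ on the gene's strand, with letters in capitals where a script found, on either strand, a motif. The motifs searched were the receptor hexamer AGGTCA and its repeats with 1 or 5 bases between. The GC box was searched as GGGCGG. The E-box was searched as CACGTG, and the CCAAT box by the letters of its name. The windows are chr10:94147681-94147980 (+) for Nr2c1, chr6:92092183-92092482 (+) for Nr2c2, chr15:97908247-97908546 (-) for Vdr and chr13:78198824-78199123 (-) for the upstream start of Nr2f1.
Nr2c1: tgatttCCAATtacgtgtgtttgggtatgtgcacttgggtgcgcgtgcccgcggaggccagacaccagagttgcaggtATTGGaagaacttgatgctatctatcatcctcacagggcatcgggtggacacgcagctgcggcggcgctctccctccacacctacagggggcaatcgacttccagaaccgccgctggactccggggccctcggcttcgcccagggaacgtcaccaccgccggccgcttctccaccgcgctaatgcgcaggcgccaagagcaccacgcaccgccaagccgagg
Nr2c2: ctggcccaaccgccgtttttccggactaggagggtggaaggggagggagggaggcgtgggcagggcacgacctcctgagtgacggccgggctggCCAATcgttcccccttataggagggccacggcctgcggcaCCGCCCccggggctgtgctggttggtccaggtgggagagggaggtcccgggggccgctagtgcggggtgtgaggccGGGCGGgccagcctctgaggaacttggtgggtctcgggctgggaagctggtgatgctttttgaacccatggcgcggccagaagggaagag
Vdr: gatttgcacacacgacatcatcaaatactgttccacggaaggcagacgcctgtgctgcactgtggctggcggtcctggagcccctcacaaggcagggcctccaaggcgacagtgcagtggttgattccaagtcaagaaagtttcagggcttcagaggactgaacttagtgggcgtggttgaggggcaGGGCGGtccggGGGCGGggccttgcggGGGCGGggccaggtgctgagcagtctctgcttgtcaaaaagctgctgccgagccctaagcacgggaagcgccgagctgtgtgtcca
Nr2f1: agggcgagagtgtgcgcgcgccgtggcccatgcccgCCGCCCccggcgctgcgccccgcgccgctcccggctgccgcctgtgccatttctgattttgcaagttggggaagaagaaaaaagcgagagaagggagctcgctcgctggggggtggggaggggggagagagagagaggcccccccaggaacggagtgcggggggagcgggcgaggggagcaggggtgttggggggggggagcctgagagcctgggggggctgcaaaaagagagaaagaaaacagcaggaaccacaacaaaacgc
No AGGTCA stands in these 4 windows, nor in the window of the downstream start of Nr2f1. The capitals mark 2 CCAAT boxes in Nr2c1, 1 CCAAT box and 2 GC boxes in Nr2c2, 3 GC boxes in Vdr and 1 GC box in Nr2f1. GC content was 63.3% in Nr2c1, 69.0% in Nr2c2, 61.3% in Vdr and 68.0% in the upstream window of Nr2f1, against a median of 57.3% over the receptor windows and 52.7% over all 32851 windows. The downstream window of Nr2f1 had 43.0%. AGGTCA stood in 8 of the 47 windows of 33 listed receptor genes (17.0%) and in 16.3% of all windows. A direct repeat with 1 base between, AGGTCANAGGTCA, or with 5 bases between, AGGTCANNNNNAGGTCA, stood in 0 receptor windows and in 0.0396% and 0.00913% of all windows. GC boxes stood in 38.3% of the receptor windows and 35.7% of all, CCAAT boxes in 40.4% and 37.4%, and E-boxes in 8.51% and 7.15%. A match is a description of letters and not of binding.

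Among the NR1 receptors that bind DNA with RXR, Vdr fell and the other 9 measured genes did not pass. Vdr, whose ligand is the hormone form of vitamin D and which takes part in monocyte differentiation, had 6.63 and 6.09 in ATRA, against 7.31, 7.67 and 7.45 in DMSO. It fell by 1.12, which is 2.17-fold lower (SE 0.22, adjusted p = 0.0343). Both ATRA values lay below all DMSO values, by at least the range of the DMSO values. Its call held in 8 of the 17 alternatives. It ended, among others, with the level trend removed (-0.49, adjusted p = 0.198), after quantile (adjusted p = 0.0814) and cyclic loess normalization (adjusted p = 0.0675), without ATRA replicate 2 (-0.84, adjusted p = 0.0608) and without any 1 DMSO array (-1.20 to -1.02, adjusted p of 0.114 to 0.138). Ppard, a fatty acid sensor that drives fatty acid oxidation genes, had 7.13 and 6.90 in ATRA and 7.60, 7.92 and 7.57 in DMSO (difference -0.68, SE 0.17, adjusted p = 0.0561). Its groups did not overlap, and with the level trend removed its difference was 0.11. Thra, thyroid hormone receptor alpha, had 6.82 and 6.42 in ATRA and 7.09, 7.09 and 7.35 in DMSO (difference -0.56, SE 0.18, adjusted p = 0.0973), also without overlap, and -0.16 with the trend removed. The 2 genes passed after each array was centred on its median, Ppard with an adjusted p of 0.0245 and Thra with 0.0447. Ppard also passed with dim genes left out (adjusted p = 0.0477), and Thra without ATRA replicate 1 (adjusted p = 0.0346). RefSeq places the ends of Thra and Nr1d1 over each other, so that features of the 2 genes may share transcript sequence.

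Nr1i3, the xenobiotic receptor CAR of liver, had the largest positive difference of the 35 genes. It had 6.30 and 6.90 in ATRA, against 5.38, 5.88 and 5.88 in DMSO (difference 0.89, SE 0.27, adjusted p = 0.0834). The groups did not overlap, but the ATRA arrays differed by 0.60 from each other, and with the level trend removed the difference was 0.49 (adjusted p = 0.205). Nr1i2, the related receptor PXR, had 5.23 and 5.27 in ATRA and 5.23 in all 3 DMSO arrays. Nr1h3, LXR alpha, a sensor of oxysterols, had 6.41 in both ATRA arrays, against 6.41, 6.41 and 6.45 in DMSO (difference -0.01, adjusted p = 0.924). For Nr1i2 and Nr1h3 a single array differed from the others, and for Nr1h4, the bile acid receptor FXR, none did. Ppara, the PPAR of fasting liver, differed by 0.33 (adjusted p = 0.262), Pparg, the PPAR of fat cells, by 0.08 (adjusted p = 0.596) and Thrb, thyroid hormone receptor beta, by 0.17 (adjusted p = 0.481).

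The NR1 receptors of the circadian clock did not pass. Nr1d1 and Nr1d2 encode REV-ERB alpha and beta, heme-binding repressors of the clock gene Arntl, and Rora and Rorb encode activators that compete with them for the same sites. Nr1d1 had 6.32 and 6.13 in ATRA, against 6.17, 6.17 and 6.18 in DMSO (difference 0.05, SE 0.12, adjusted p = 0.743), so that the ATRA arrays fell on either side of DMSO. Without ATRA replicate 2 Nr1d1 passed as higher by 0.15 (adjusted p = 0.0387), and without ATRA replicate 1 the difference was -0.05 (adjusted p = 0.194). Nr1d2 had 7.57 and 7.06 in ATRA, against 7.57, 7.66 and 7.49 in DMSO (difference -0.26, SE 0.20, adjusted p = 0.321). Only ATRA replicate 2 lay below the DMSO values of Nr1d2, and with the level trend removed the difference turned to 0.44 (adjusted p = 0.164). Rora had 5.57 and 5.80 in ATRA, against 5.76, 5.57 and 5.57 in DMSO (difference 0.05, adjusted p = 0.784), and Rorb differed by 0.12 (adjusted p = 0.587). The groups of both ROR genes overlapped.

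In the NR2 subfamily Nr2f1 rose. Nr2f1, Nr2f2 and Nr2f6 encode COUP-TF I, COUP-TF II and EAR2, orphan receptors that can compete with RAR and RXR for the same repeats, and Nr2f1 is known as a gene induced by retinoic acid in embryonal carcinoma cells. Nr2f1 had 6.41 and 6.57 in ATRA, against 5.82, 5.96 and 5.96 in DMSO. It rose by 0.58, which is 1.5-fold higher (SE 0.12, adjusted p = 0.039), and the 2 groups did not overlap. In the class of Nr2f1, genes with DMSO means of 5 to 6, the median difference was 0.45, and with the level trend removed Nr2f1 differed by 0.24 (adjusted p = 0.327). Its call held in 6 of the 17 alternatives and ended in the other 11, which include all 4 other scalings (0.23 to 0.41, adjusted p of 0.154 to 0.327) and the fits without 1 DMSO array (0.54 to 0.60, adjusted p of 0.134 to 0.156). Nr2f2 had 5.93 and 6.02 in ATRA, against 5.38, 5.85 and 5.96 in DMSO (difference 0.24, adjusted p = 0.389), which overlapped. Nr2f6 had 7.61 in both ATRA arrays, against 7.53, 7.61 and 7.63 in DMSO (difference 0.02, SE 0.11, adjusted p = 0.896), again with overlap. Genes from 7 to 8 in DMSO had a median difference of -0.64, and with the level trend removed Nr2f6 stood at 0.73 (SE 0.16, adjusted p = 0.0808). Hnf4a and Hnf4g, receptors of liver and gut, differed by 0.49 (adjusted p = 0.267) and 0.34 (adjusted p = 0.204), and Nr2e1, the neural stem cell receptor TLX, by 0.39 (adjusted p = 0.112). The groups of Hnf4g and Nr2e1 did not overlap, with ATRA the higher.

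Of the 8 NR3 genes, the steroid receptors and their orphan relatives, 0 passed in either direction. Nr3c1, the glucocorticoid receptor, had 7.81 and 7.35 in ATRA, against 7.81, 7.86 and 7.81 in DMSO (difference -0.25, SE 0.18, adjusted p = 0.298). ATRA replicate 1 equalled 2 of the DMSO arrays, and ATRA replicate 2 lay below the DMSO arrays. Without ATRA replicate 1 the gene passed as lower (difference -0.48, adjusted p = 0.0059). After cyclic loess normalization it passed as higher, at 0.61 (adjusted p = 0.0452), and with the level trend removed it stood at 0.64 (SE 0.13, adjusted p = 0.0651). The direction of Nr3c1 depended on the scaling. Esrra, estrogen-related receptor alpha, an orphan receptor of mitochondrial genes, had 8.27 and 8.45 in ATRA, against 7.94, 8.15 and 8.15 in DMSO (difference 0.28, SE 0.14, adjusted p = 0.199). Esrra was higher in each ATRA array than in any DMSO array. Genes of that DMSO class, from 8 to 9, had a median difference of -1.33, and with the level trend removed Esrra had the highest value of the 35 genes, 1.36 (SE 0.26, adjusted p = 0.0611). Nr3c2, the mineralocorticoid receptor, had 7.02 and 6.70 in ATRA, against 6.70, 7.04 and 6.80 in DMSO (difference 0.01, adjusted p = 0.959), and its groups overlapped. Its dimmer second feature had 4.94 and 5.55 in ATRA, against 4.43, 4.83 and 4.81 in DMSO. Esr1 and Esr2, the estrogen receptors, differed by 0.14 (adjusted p = 0.431) and 0.45 (adjusted p = 0.177), and Pgr, the progesterone receptor, by 0.17 (adjusted p = 0.431). Esrrb and Esrrg, the relatives of Esrra, differed by 0.37 (adjusted p = 0.37) and 0.29 (adjusted p = 0.2).

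The 5 genes of the NR5, NR6 and NR0 subfamilies, which act mainly in gonads, adrenal, liver and early embryos, all had positive differences, and 0 passed. Nr5a2, the receptor LRH-1, had 5.55 and 6.55 in ATRA, against 5.39, 5.36 and 5.31 in DMSO (difference 0.70, SE 0.32, adjusted p = 0.176). The ATRA arrays lay above DMSO but differed more from each other than replicate 1 did from DMSO, with ATRA replicate 2 the higher. Nr6a1, the germ cell nuclear factor, differed by 0.37 (adjusted p = 0.294), Nr5a1, the steroidogenic factor SF-1, by 0.08 (adjusted p = 0.569), Nr0b1, the receptor DAX-1 that lacks the usual DNA-binding domain, by 0.36 (adjusted p = 0.263) and Nr0b2, the similar corepressor SHP, by 0.30 (adjusted p = 0.28). With the level trend removed their differences ran from -0.37 for Nr5a1 to 0.24 for Nr5a2. Without ATRA replicate 1, where the spread of the remaining array is taken from the DMSO group, 8 receptors passed as higher, among them Nr5a2, Nr6a1 and Nr0b2, and 6 as lower, while 33.5% of all genes passed as higher and 30.6% as lower. Without ATRA replicate 2 the counts were 2 higher and 2 lower, beside 13.3% and 21.3% of all genes.

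The receptors followed the level trend of the arrays in part. The 4 receptors with a DMSO mean from 4 to 5 had a median difference of 0.12, against 0.56 for all 2790 genes of that class. The 13 receptors from 5 to 6 had a median difference of 0.34, against 0.45 for all 5362 genes of that class, and the 10 from 6 to 7 had 0.16, against 0.14 for 4333 genes. The 6 from 7 to 8 had a median of -0.41, against -0.64 for 3409 genes, and the 2 from 8 to 9, Nr2c2 and Esrra, had -0.45, against -1.33 for 2582 genes. The trend was steeper in ATRA replicate 2, where genes from 8 to 9 stood at a median of -1.73 from the DMSO mean, than in replicate 1, where they stood at -0.97. With the trend removed, 20 of the 35 receptors had a difference of another sign than in the values as deposited, counting Nr1h4, whose deposited difference was 0.

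**Figure D2:**
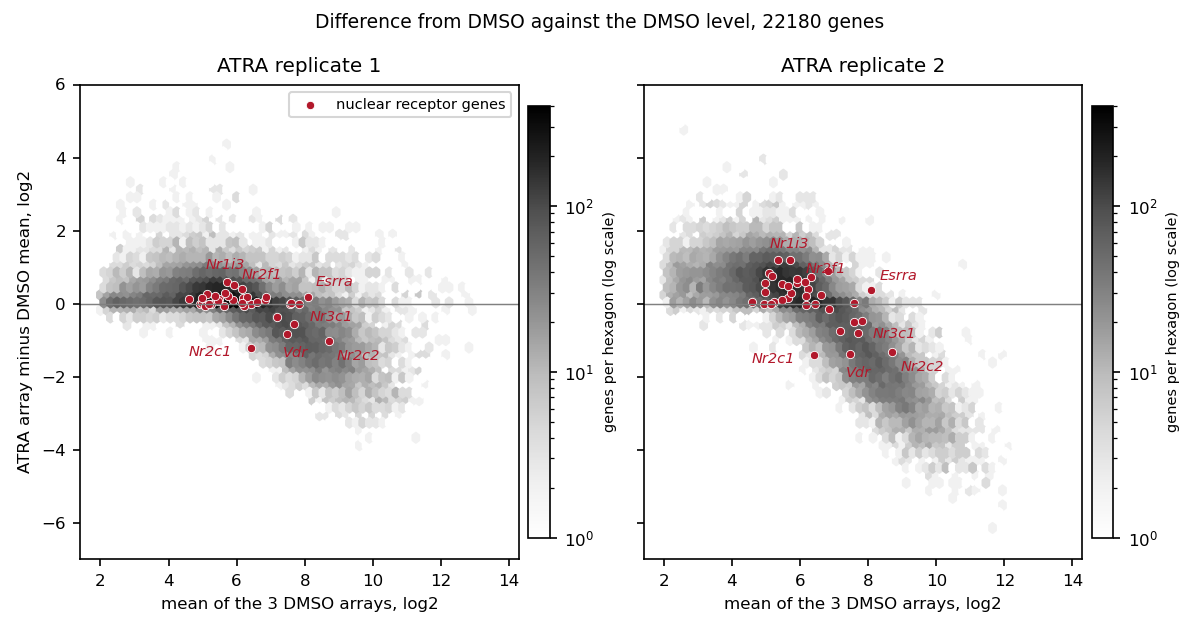
Each ATRA array minus the mean of the 3 DMSO arrays (vertical axis, log2) against that mean (horizontal axis, log2), for ATRA replicate 1 on the left and replicate 2 on the right. Grey hexagons count all 22180 genes on a log scale and red points are the 35 receptors. The cloud slopes down to the right, more so for replicate 2, and Nr2c1 lies below it while Esrra lies at its upper side.

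**Figure D3:**
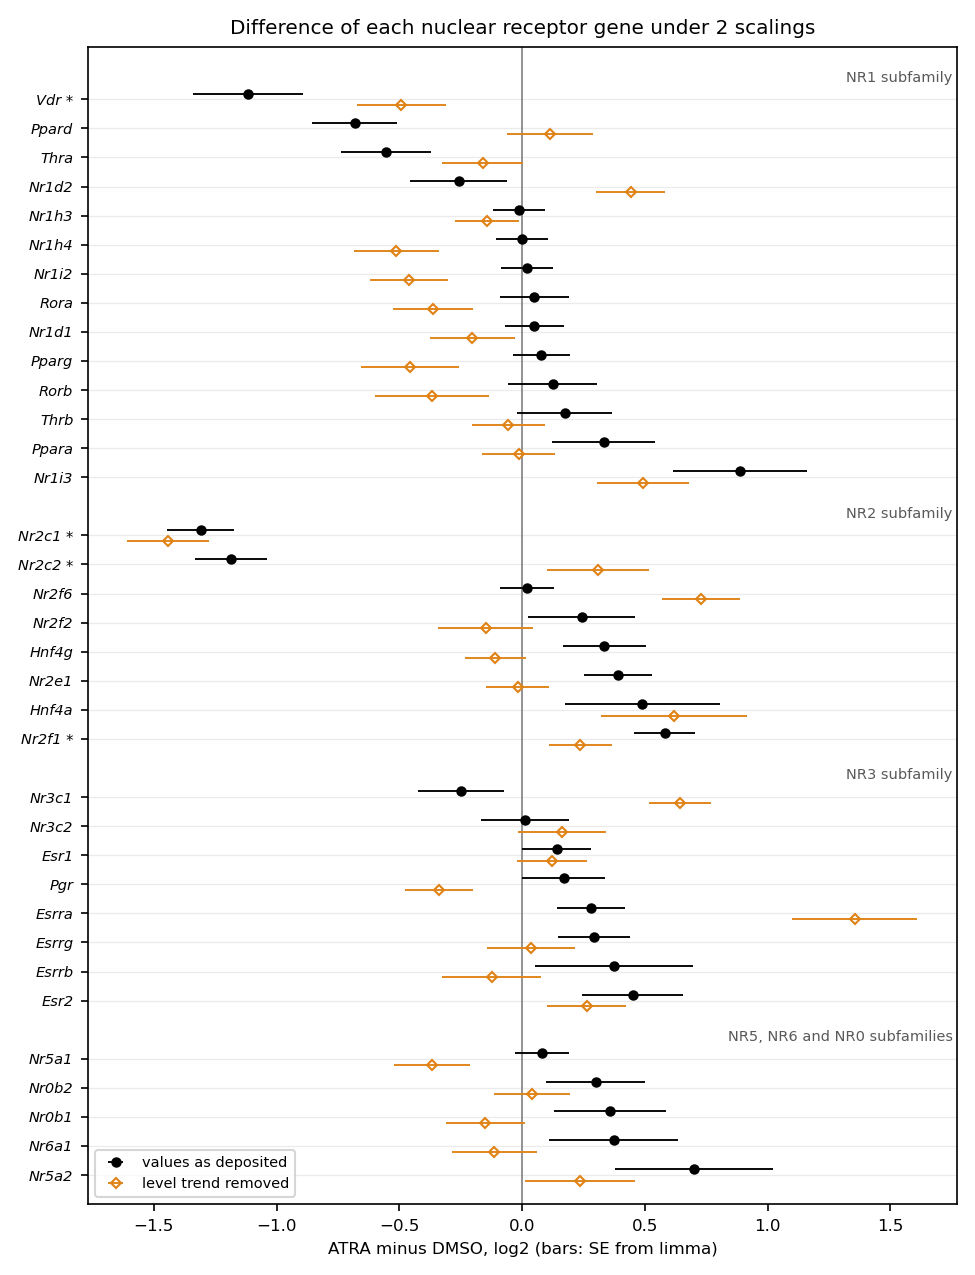
Difference of ATRA minus DMSO on the log2 scale (horizontal axis) for each receptor, with bars of 1 SE from limma, for the values as deposited (black circles) and with the level trend removed (open orange diamonds). Asterisks mark an adjusted p under 0.05 in the values as deposited. Nr2c1 stays at the far left in both, at -1.31 and -1.44, while Nr2c2 moves across 0, to 0.31.

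The 3 RXR genes, which encode the heterodimer partners, did not pass with all arrays and the values as deposited. Rxra had 5.97 and 6.64 in ATRA, against 5.96 in all 3 DMSO arrays (difference 0.34, adjusted p = 0.276), and passed as higher without ATRA replicate 1 (0.68, adjusted p = 0.00217). Rxrb had 7.82 and 8.25 in ATRA, against 8.46, 8.42 and 8.43 in DMSO (difference -0.40, adjusted p = 0.153), and 0.92 with the level trend removed. It passed as lower without ATRA replicate 1 (adjusted p = 0.0262), without ATRA replicate 2 (adjusted p = 0.00953) and after centring on array medians (adjusted p = 0.0463). Rxrg had 5.74 and 5.81 in ATRA, against 5.70, 5.81 and 5.79 in DMSO (difference 0.01, adjusted p = 0.961).

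The coregulators that receptors recruit were lower in the values as deposited. Of 31 measured coregulator genes 0 rose, 22 fell and 9 did not pass, or 71.0% called, against 21.9% of all genes. The median difference was -1.79. Among coactivators 14 of 19 fell, and among corepressors 8 of 12 fell. Carm1, an arginine methyltransferase, had 7.51 and 7.40 in ATRA, against 9.93, 9.76 and 9.73 in DMSO, a fall of 5.1-fold (adjusted p = 0.00627). Ncoa6 (-1.75), Ncoa2 (-1.48), both binding partners of liganded receptors, and Pprc1 (-1.65), a relative of PGC-1 alpha, fell too. Of the corepressor genes, Tbl1xr1 (-2.59), a part of the NCoR and SMRT complexes, Sin3a (-2.25), Hdac1 (-2.44) and Gps2 (-1.75) fell. These 8 genes were picked by their small p, and their groups did not overlap. Over the 31 coregulators, each ATRA array was lower than every DMSO array for 27 (29.2% of all genes). For 1 coregulator each was higher (33.0% of all genes). Most coregulators lay where the level trend was steep, with a median DMSO mean of 8.75. With the trend removed 0 of 31 were higher and 1, Tbl1xr1, was lower (-1.08, adjusted p = 0.0479). That is 3.23% called, against 3.28% of all genes in that setting. Ncoa2 and Pprc1 then had differences of 0.29 and 0.05. Of 7 measured genes listed as chaperones of the glucocorticoid receptor, Hsp90b1 (-3.11), Hsp90aa1 (-0.97) and Stip1 (-3.51) fell. That was 42.9% called, beside 15.5% of all genes that were lower. Hsp90b1 was on the list but encodes the HSP90 of the endoplasmic reticulum, not the cytosolic form that holds this receptor. The list's median DMSO mean was 9.08, and all genes from 9 to 10 had a median difference of -1.94. Stip1 alone stayed past the threshold with the trend removed (adjusted p = 0.0421), while Hsp90aa1 turned to 0.29.

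Target genes of the receptors did not move one way. Of 79 measured target and clock genes 5 rose, 14 fell and 60 did not pass, or 24.1% called, against 21.9% of all genes, with a median difference of -0.01. Nr1h3, an LXR target, and Esrra, an estrogen-related receptor target, are counted here as well as among the receptors. Of 7 measured targets of VDR, PXR and CAR, 3 rose, 0 fell and 4 did not pass, beside 6.48% of all genes that were higher, and the median was 0.69. Cyp24a1, the vitamin D hydroxylase and best known VDR target, had 6.32 and 6.67 in ATRA, against 5.21, 5.39 and 5.63 in DMSO (difference 1.09, SE 0.20, adjusted p = 0.0276). The groups of Cyp24a1 did not overlap, and neither did those of the other 6 genes, with ATRA the higher, as for 33.0% of all genes. The median DMSO mean of these 7 genes was 5.43, and all genes from 5 to 6 had a median difference of 0.45. Trpv6, a calcium channel, rose by 1.19 (adjusted p = 0.0479) and Cyp3a13, a xenobiotic hydroxylase, by 0.69 (adjusted p = 0.0366). With the level trend removed the differences of Cyp24a1, Trpv6 and Cyp3a13 were 0.63, 0.87 and 0.14, with adjusted p of 0.0957, 0.0887 and 0.641, and 0 of the 7 passed.

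Of 13 measured LXR targets 1 rose and 3 fell, or 30.8% called, beside 21.9% of all genes. Abca1, the cholesterol exporter, rose by 0.62 (adjusted p = 0.0393), and Srebf1, the regulator of fatty acid synthesis (-1.24), Mylip, which degrades the LDL receptor (-1.39), and Lpcat3, a phospholipid acyltransferase (-1.76), fell. Of 15 PPAR targets 1 rose and 4 fell, or 33.3%. Fabp4, a fatty acid binding protein, had 6.72 and 7.21 in ATRA, against 5.49, 4.70 and 5.18 in DMSO, and rose by 1.84, or 3.58-fold (SE 0.30, adjusted p = 0.0229). Its groups lay more than 1 log2 unit apart, and with the level trend removed the difference was 1.35 (adjusted p = 0.0786). Slc25a20, the carnitine carrier (-1.37), and the beta-oxidation enzymes Acaa2 (-1.07), Acadl (-1.33) and Acadm (-1.79) fell. With the trend removed 0 LXR and 0 PPAR targets passed, and Lpcat3, Acaa2 and Acadl had differences of 0.41, 0.55 and 0.47.

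Of 9 measured targets of estrogen-related receptors 0 rose and 5 fell, beside 15.5% of all genes that were lower. Their median DMSO mean was 9.09. The genes that fell included Idh3a of the TCA cycle, which was 9.97-fold lower (adjusted p = 0.00697), Sdhb (-1.42), Ndufs1 (-1.72) and Atp5b (-3.33). Idh3a stayed past the threshold with the trend removed (-1.58, adjusted p = 0.0192), and Sdhb turned to 0.32. Cycs, cytochrome c, a gene with 5 features judged by the brightest, then passed as higher at 3.12 (adjusted p = 0.0353). In the values as deposited no difference of this list was above 0.28. Of 15 glucocorticoid receptor targets 1, Per1, fell (6.67%). Fkbp5, a sensitive glucocorticoid target, was at 6.91 in all 5 arrays, and 113 of all genes likewise had 1 value throughout. As for the receptors, such equality is no sign of precision and does not show an unchanged level. Of 14 measured clock genes 0 rose and 3 fell, which were Csnk1e (-1.40), Per1 (-1.86) and Per3 (-0.44), and 11 did not pass. That is 21.4% called, beside 21.9% of all genes. Arntl, the main target of the REV-ERB receptors, had 7.16 and 6.86 in ATRA, against 7.76, 7.01 and 7.73 in DMSO (difference -0.49, adjusted p = 0.249). With the trend removed 0 clock genes passed, and of the glucocorticoid targets Nfkbia alone, at 1.47 (adjusted p = 0.0417). As deposited, no difference of the glucocorticoid targets was above 0.38. Cycs, Nfkbia, Fkbp5 and Arntl were named after their values were seen. None of the 6 thyroid hormone receptor targets or the 5 measured FXR and SHP targets passed, with the smallest adjusted p at 0.0576 for Thrsp and 0.0569 for Abcb11.

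**Figure D4:**
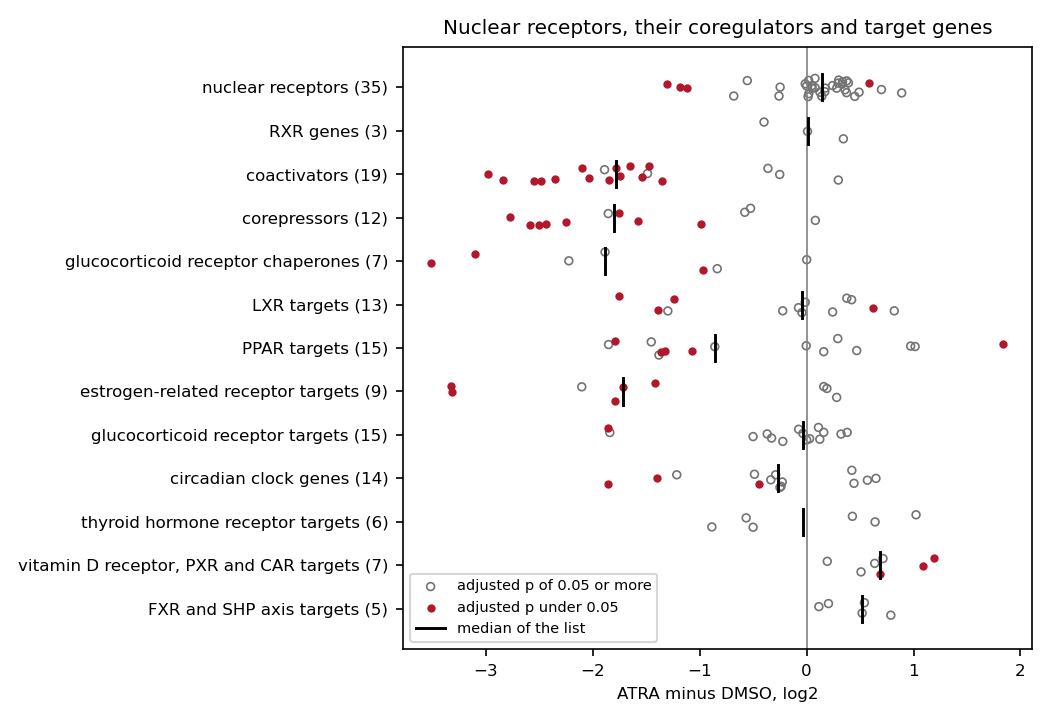
Difference of ATRA minus DMSO on the log2 scale (horizontal axis) for each measured gene of the nuclear receptors, RXR genes, coregulators, chaperones and target lists, with the number of genes in brackets. Filled red points have a limma adjusted p under 0.05, open points do not, and black bars are list medians. Coactivators and corepressors centre near -1.8 while the receptors centre at 0.14.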

How the data were processed

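RNA of mouse HSCs cultured with ATRA (2 samples) or DMSO (3 samples) was measured on Affymetrix arrays. The deposited log2 values are the authors' RMA expression values. RMA, oligo 1.36.1 and limma 3.28.20 are named in the submitters' processing notes, without their role or order, and whether the 5 arrays were normalized together is not given in the sources used here. The genome build is not given there either. Of 41345 features, 23521 named 1 gene in the platform table, 1814 several and 16010 none, and 23328 of those naming 1 gene matched the RefSeq gene table by identifier. One feature per gene, the brightest over all arrays, gave 22180 genes. These were fitted with limma 3.58.1 in R 4.3.3 (lmFit and eBayes on 2 group means, 3 residual degrees of freedom). The p-values were adjusted by Benjamini-Hochberg across the 22180 genes, and an adjusted p under 0.05 was the threshold. An exact two-sided permutation test of 2 against 3 arrays could not go below p = 0.1. For the level trend, a lowess curve (span 0.3) of each array minus the DMSO mean against that mean was subtracted. The alternatives were 4 other scalings, leaving out each array, a replicate block, array weights, an intensity trend, and other filters and adjustments. Genes named were every receptor called, the brightest 4, a set of receptors listed by name, and up to 4 called genes with the smallest p of each related list. The receptors and lists were chosen with earlier results of these data known. The fit was tested on simulated data with the same spread for every gene and no level trend, unlike these arrays. That was a check of the code and not of the calls made here.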

Additional observations from a re-analysis of the deposited data

How the results depend on the processing

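Nr2c1 was the 1 receptor called under all 4 other scalings, but its call ended without any 1 DMSO array, with array weights and with the replicate block. Leaving out each array in turn gave 0 to 8 receptors called higher and 0 to 6 lower, 0 to 1 coregulators higher and 0 to 26 lower, 0 to 18 target genes higher and 0 to 29 lower, and 0 to 7424 of all genes higher and 0 to 6783 lower. All of these counts were 0 without any 1 DMSO array, and the highest counts of receptors came without ATRA replicate 1.

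The replicate numbers do not mark a stated pairing, and only 2 are shared: deviations from the group means correlated at 0.13 for number 1 and 0.10 for number 2. For the unmatched ATRA replicate 2 and DMSO replicate 3 the correlation was 0.07. With 2 ATRA arrays the deviations of 1 mirror those of the other, so these correlations are not independent and cannot show a pairing. With the replicate block 0 receptors, 0 coregulators and 0 target genes were called in either direction, and 0 of all genes higher and 0 lower, although 1597 were higher and 3815 lower at an unadjusted p under 0.05. Nr3c2 turned to -0.010 with the block. With array weights the counts were 0 in the same lists as well, with 922 higher and 3455 lower genes at an unadjusted p under 0.05.

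Repeated quantile normalization gave 0 receptors higher and 1 lower, 8 coregulators lower, 1 target gene higher and 6 lower, and 439 of all genes higher and 1743 lower. Cyclic loess normalization gave 1 receptor higher, which was Nr3c1 in place of Nr2f1, and 1 lower, 13 coregulators lower, 1 target higher and 4 lower, and 771 genes higher and 1504 lower. Centring on array medians gave 0 receptors higher and 5 lower, 2 targets higher, and 560 of all genes higher and 4542 lower. Removal of the level trend gave 0 receptors higher and 1 lower, 1 coregulator lower, 2 targets higher and 1 lower, and 505 genes higher and 223 lower. Without dim genes 942 genes were higher and 3726 lower. Without genes of 1 value in all DMSO arrays 0 receptors and 1427 of all genes were higher. An adjusted p under 0.1 gave 2 receptors higher and 5 lower, 10 targets higher, and 3083 of all genes higher and 4672 lower. Adjustment over all features gave 0 receptors higher, 2 targets higher and 8 lower, and 717 of all genes higher and 2745 lower. The median difference of all genes was 0.16 as deposited, -0.03 after quantile and -0.05 after cyclic loess normalization, -0.11 after centring and 0.02 with the trend removed. The cause of these changes was not tested.

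With the level trend removed the sign of the difference turned for Nr0b1 (-0.15), Nr1d1 (-0.20), Nr1d2 (0.44), Nr1i2 (-0.46), Nr2c2 (0.31), Nr2e1 (-0.017), Nr2f2 (-0.15), Nr3c1 (0.64), Nr5a1 (-0.37), Nr6a1 (-0.11), Ppara (-0.013), Ppard (0.11), Pparg (-0.46), Thrb (-0.056), Esrrb (-0.12), Rora (-0.36), Rorb (-0.37), Hnf4g (-0.11), Pgr (-0.34), Ncoa2 (0.29), Pprc1 (0.049), Lpcat3 (0.41), Acaa2 (0.55), Acadl (0.47), Sdhb (0.32), Hsp90aa1 (0.29), Rxrb (0.92) and Rxrg (-0.37). Under cyclic loess it turned for Nr0b1 (-0.16), Nr1d1 (-0.28), Nr1d2 (0.39), Nr1i2 (-0.49), Nr2c2 (0.021), Nr2e1 (-0.058), Nr2f2 (-0.20), Nr3c1 (0.61), Nr5a1 (-0.42), Nr6a1 (-0.14), Ppara (-0.059), Pparg (-0.46), Thrb (-0.10), Esrrb (-0.14), Rora (-0.43), Rorb (-0.39), Hnf4g (-0.15), Pgr (-0.35), Acaa2 (0.27), Acadl (0.11), Hsp90aa1 (0.062), Rxra (-0.024), Rxrb (0.84) and Rxrg (-0.45). Under quantile normalization it turned for Nr0b1 (-0.039), Nr1d1 (-0.19), Nr1d2 (0.17), Nr1i2 (-0.40), Nr2f2 (-0.079), Nr3c1 (0.32), Nr5a1 (-0.31), Pparg (-0.38), Rora (-0.31), Rorb (-0.29), Hnf4g (-0.0086), Pgr (-0.24), Rxrb (0.39) and Rxrg (-0.33). Under median centring it turned for Nr1d1 (-0.22), Nr1i2 (-0.25), Nr2f2 (-0.028), Nr2f6 (-0.25), Nr3c2 (-0.26), Nr5a1 (-0.19), Pparg (-0.19), Thrb (-0.10), Esr1 (-0.13), Rora (-0.22), Rorb (-0.15), Pgr (-0.10) and Rxrg (-0.26). With array weights it turned for Nr2f6 (-0.0053), Nr3c2 (-0.014) and Rxrg (-0.015). Over the fits that left out 1 array, the values that crossed 0 were those of Nr1d1 (-0.047 to 0.15), Nr3c2 (-0.15 to 0.17), Rorb (-0.0058 to 0.25), Nr6a1 (-0.016 to 0.76), Thrb (-0.059 to 0.40), Esrrb (-0.076 to 0.82), Rora (-0.063 to 0.16), Rxrg (-0.032 to 0.047) and Nr2f6 (-0.011 to 0.040).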

Other observations

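Embryonic globin genes, which TR2 and TR4 repress in erythroid cells, were looked up after the receptor values had been seen, and neither passed. Hbb-y had 6.37 and 5.60 in ATRA, against 5.60 in all 3 DMSO arrays (difference 0.39, limma adjusted p = 0.276). Hbb-bh1 had 5.02 and 5.50 in ATRA, against 4.61, 4.45 and 4.57 in DMSO (difference 0.71, adjusted p = 0.0602), and 0.18 with the level trend removed (adjusted p = 0.503). The groups of Hbb-bh1 did not overlap, while ATRA replicate 2 of Hbb-y equalled the DMSO arrays.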
